A study of Mus musculus with 14 samples.

Results

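The miR-199 and miR-214 group consists of 6 mature mouse miRs (mmu-miR-199a-5p, mmu-miR-199a-3p, mmu-miR-199b, mmu-miR-199b*, mmu-miR-214 and mmu-miR-214*), which were picked by name, without reference to their values, from the array table of left ventricles (LV) of mice with heart failure (HF). mmu-miR-199a-3p and mmu-miR-199b have the same sequence and share 1 probe, so that the 6 miRs correspond to 5 of the 520 measured mouse rows that were compared. The 14 LV came from male C57Bl/6 mice aged 3 to 4 months, with 1 single-channel array per mouse. The 5 HF-ESTR mice were in HF 6 to 8 weeks after transverse aortic constriction (TAC), in which a band narrows the aorta and overloads the LV, and then received estradiol (E2) at 0.03 mg/kg per day from a pellet that released it for 10 days. The 5 HF mice had TAC and reached HF over the same 6 to 8 weeks without E2, and 4 sham mice had the operation without the constriction. The HF mice were taken when HF was reached, so that the HF-ESTR hearts had also been in HF for longer, and this time and E2 cannot be told apart. RNA was isolated from powdered hearts, and the LV sample holds all of its cell types. A change in a miR can therefore come from more or fewer cells of a type or from more or less of the miR per cell, which cannot be told apart.

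miRs are short RNAs cut from hairpin precursors. Each hairpin can give a mature miR from either arm, and the seed, bases 2 to 8 of the mature miR, pairs with target mRNAs. The hairpins of miR-199a-2 and miR-214 are made from 1 long noncoding transcript, Dnm3os, which is known from mesenchymal cells of the embryo, where the transcription factor Twist1 drives it. In mice, miR-214 is known to repress the sodium-calcium exchanger Slc8a1 (NCX1) in cardiomyocytes, the 5p arm of miR-199b to repress the kinase Dyrk1a, and miR-199a-3p to increase proliferation of cardiomyocytes when supplied. In rat cardiomyocytes, miR-199a-5p is known to repress the hypoxia factor Hif1a. The array does not separate fibroblasts, other mesenchymal cells and cardiomyocytes, so the mesenchymal origin that the group is known for was not tested here.

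The 5 measured sequences fall into 4 seeds, and they are shown with the seed in capitals because this is how the members differ in what they can pair with. The sequences are those that the table gives for its rows, and 4 of the 5 rows match a mature entry of RefSeq (GRCm38.p6), in which miR-214 is listed as mmu-miR-214-3p and miR-214* as mmu-miR-214-5p.
miR-214: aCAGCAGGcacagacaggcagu
miR-214*: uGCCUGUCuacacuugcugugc
miR-199a-5p: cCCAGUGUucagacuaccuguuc
miR-199b*: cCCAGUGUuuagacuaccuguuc
miR-199a-3p and miR-199b: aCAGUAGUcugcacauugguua
miR-199a-5p and miR-199b* share a seed and 22 of their 23 bases, the exception being C10U (miR-199a-5p first, position counted from its 5′ end, then miR-199b*). Outside the group, 0 of the other tested rows carry any of the 4 seeds. RefSeq also gives mmu-miR-761 the seed of miR-214, but miR-761 was not among the 520 rows.

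Each probe on the array is the complement of all or nearly all of the miR, written 2 times in a row. The probes of miR-199a-5p and miR-199b* are shown because only 1 base in each copy tells these miRs apart.
Probe of miR-199a-5p: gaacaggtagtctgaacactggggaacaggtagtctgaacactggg
Probe of miR-199b*: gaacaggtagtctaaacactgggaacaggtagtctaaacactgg
How much of the signal of one of these probes comes from the other miR was not tested, and the values of the 2 rows are not independent evidence to that extent. The probe for both 3p arms takes up the product of 3 genes.

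The members are encoded by 4 genes in GRCm38.p6. Mir199a-2 lies on the plus strand at chr1:162217814-162217923 and Mir214 on the same strand at chr1:162223368-162223477, with 5444 bases between them. Both lie within Dnm3os (chr1:162217623-162225550, plus strand), whose span lies within that of the dynamin gene Dnm3 (chr1:161982450-162478321) on the minus strand. Mir199b (chr2:32318460-32318569, plus strand) lies within the span of Dnm1 on the minus strand, and Mir199a-1 (chr9:21496495-21496564, minus strand) within that of Dnm2 on the plus strand. All 4 miR genes are thus antisense to a dynamin gene. Whether they lie in an exon or an intron was not determined here, since the annotation used gives gene spans only. The precursors of miR-199a-2, miR-199b and miR-214 are shown with the measured mature arms in capitals, 5p arm first, because 2 arms of 1 hairpin come from the same transcript.
Mir199a-2: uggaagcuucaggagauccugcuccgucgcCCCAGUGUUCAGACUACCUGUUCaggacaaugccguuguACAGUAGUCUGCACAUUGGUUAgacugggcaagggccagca
Mir199b: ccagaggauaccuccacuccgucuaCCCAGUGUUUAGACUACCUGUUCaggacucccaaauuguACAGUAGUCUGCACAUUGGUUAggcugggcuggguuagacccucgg
Mir214: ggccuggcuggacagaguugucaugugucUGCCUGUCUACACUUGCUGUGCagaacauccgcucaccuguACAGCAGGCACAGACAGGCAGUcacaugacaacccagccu
The miR-199a-5p sequence is held by Mir199a-1 and Mir199a-2, the miR-199b* sequence by Mir199b alone of these 4 genes, and the shared 3p sequence by all 3 miR-199 genes. Of the measured rows, only those of miR-214 and miR-214* thus report by sequence on a single gene of chromosome 1, and miR-199b* reports on chromosome 2.

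The start of Dnm3os lies 191 bases before Mir199a-2. Its promoter is shown because 2 of the miR genes lie downstream of it within the same transcript (RefSeq, GRCm38.p6, chr1:162217373-162217672, plus strand, 300 bases around the annotated start).
Dnm3os promoter: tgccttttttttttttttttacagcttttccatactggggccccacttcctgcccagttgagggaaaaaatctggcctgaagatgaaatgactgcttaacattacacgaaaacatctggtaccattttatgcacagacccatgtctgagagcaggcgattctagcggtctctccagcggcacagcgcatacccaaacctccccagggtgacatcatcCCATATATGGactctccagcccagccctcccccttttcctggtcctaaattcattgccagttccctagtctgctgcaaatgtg
The capitals mark a match to the CArG box, the motif known to be bound by serum response factor, at position -33 from the annotated start. The motif reads as itself on the opposite strand, so 1 search covers both strands, and it was the only motif searched. Of 32851 promoters of this length, 535 (1.63%) hold a CArG box. The match describes the sequence only, and binding was not measured.

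Intensities on these arrays end at a ceiling, and the brightest spot of a member read 65466. A spot was counted as saturated at 65000 or more, and a probe as saturated where 2 or 3 of its 3 spots were at that level. The values compared are the authors' log2 intensities, which were scaled with 1 constant per array. In log2 units, this constant ran from -0.62 to 0.51 for HF-ESTR, from -0.74 to -0.14 for HF and from 0.10 to 0.46 for sham. On HF-ESTR arrays 2 to 5 it was between 0.23 and 0.51. After scaling, the median of the 520 rows was between 7.90 and 8.07 on every array. The names of the arrays begin with a number that was the same for HF-ESTR 4 and 5, for HF-ESTR 1 to 3 and HF 5, for HF 1 to 4, and for all 4 sham arrays. What it stands for is not given in the sources used here. No other group has the number of the sham arrays, so that its effect and that of HF or HF-ESTR relative to sham cannot be told apart. For HF-ESTR relative to HF, the effects can be told apart only through HF-ESTR 1 to 3 and HF 5, which share a number. The second number was 650 on HF 2 and HF-ESTR 1 and 600 on the rest. The labels give separate mice as replicates.

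All 5 rows were higher in HF than in sham, and the HF and sham values did not overlap for any of them. Called means an adjusted p under 0.05 from limma with Benjamini-Hochberg adjustment over all 520 rows and an absolute log2 fold change over 0.5. By this rule 26.7% of the 520 rows were called in HF versus sham and 8.46% were called higher, against 5 of the 5 member rows. Values without overlap and higher in HF were found for 7.88% of the rows. The median log2 fold change of the members was 1.06, and that of all rows -0.13.

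miR-214 had scaled log2 values of 12.87, 12.89, 13.22, 12.67 and 12.93 in HF 1 to 5. In sham 1 to 4 it had values of 11.25, 11.93, 11.79 and 11.94. The lowest HF mouse lay 0.73 log2 units above the highest sham mouse, and sham 1 was the lowest array of its group. Its mean was 12.92 ± 0.20 in HF (SD, n = 5) and 11.73 ± 0.32 in sham (SD, n = 4). The log2 fold change was 1.19 (SE 0.17, limma adjusted p = 0.00196), which is 2.28-fold (95% CI 1.75 to 2.97). From the highest log2 fold change down, miR-214 had rank 5 of the 520 rows, and rank 4 among the 255 rows that were saturated on 0 arrays and not dim (dim rows average under 2 log2 units over the detection threshold). Before scaling, its intensity lay between 9973 and 11342 in HF and between 2282 and 2999 in sham.

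miR-214*, from the opposite arm of the same hairpin, had scaled log2 values of 9.23, 9.28, 9.25, 8.83 and 9.20 in HF 1 to 5. Its values in sham 1 to 4 were 7.76, 8.13, 8.26 and 8.27. HF 4 was set apart below the other HF mice, and it still lay above every sham mouse. miR-214* was the dimmest member row, between 3.54 and 4.23 log2 units above the detection threshold of the array in HF and between 2.34 and 2.54 in sham. It was 2.08-fold higher in HF (log2 fold change 1.06, SE 0.15, limma adjusted p = 0.00196), with means of 9.16 ± 0.18 in HF (SD, n = 5) and 8.10 ± 0.24 in sham (SD, n = 4).

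miR-199a-5p had scaled log2 values of 15.55, 15.32, 15.63, 15.24 and 15.49 in HF 1 to 5, with the probe saturated on HF 1 and HF 4. In sham 1 to 4 the values were 14.13, 14.43, 14.36 and 14.63, with 0 saturated spots. HF and sham mice were separated by 0.62 log2 units. The log2 fold change was 1.06 (SE 0.14, limma adjusted p = 0.00143), with means of 15.45 ± 0.16 in HF and 14.39 ± 0.20 in sham (SD, n = 5 and 4). On HF 2 and HF 5, 1 of the 3 spots was also at the ceiling (65419 and 65458), and only HF 3 had 0 such spots. The ceiling thus makes this log2 fold change too low. It is no minimum, since it also depends on the scaling and the sham mice. Over all alternatives it was between 0.94 and 1.85. With the values of the saturated arrays set to missing it was 1.10 (limma adjusted p = 0.00415), and this value still uses HF 2 and HF 5.

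miR-199b*, which comes from the Mir199b hairpin on chromosome 2, had scaled log2 values of 14.84, 14.74, 14.99, 14.74 and 14.93 in HF 1 to 5. Its values in sham 1 to 4 were 13.62, 14.19, 14.15 and 14.22. The 5 HF mice lay within 0.25 log2 units of each other, and sham 1 lay apart from the other sham mice. The row had 0 saturated arrays in all 3 groups. It was 1.74-fold higher in HF (log2 fold change 0.80, SE 0.15, limma adjusted p = 0.00315), with means of 14.85 ± 0.11 in HF (SD, n = 5) and 14.05 ± 0.29 in sham (SD, n = 4).

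The shared row of miR-199a-3p and miR-199b was saturated on all 5 HF arrays and on 0 of 4 sham arrays. Its scaled log2 values in HF 1 to 5 were 15.58, 15.42, 15.86, 15.26 and 15.65, and those in sham 1 to 4 were 14.50, 14.88, 14.73 and 14.99. The spread among the HF values is that of the scaling constants, since all 5 arrays had an intensity between 65418 and 65462 before scaling. With measured means of 15.55 in HF and 14.78 in sham, the 3p arms read 1.71-fold higher in HF (limma adjusted p = 0.00443). This p does not reflect variation between HF mice, whose values differ only through the scaling. The ceiling makes the fold change too low, but it is no minimum, since it also depends on the scaling and the sham mice. On the log2 scale it was 0.78, and between 0.66 and 1.56 with other processing or a mouse left out.

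**Figure D1:**
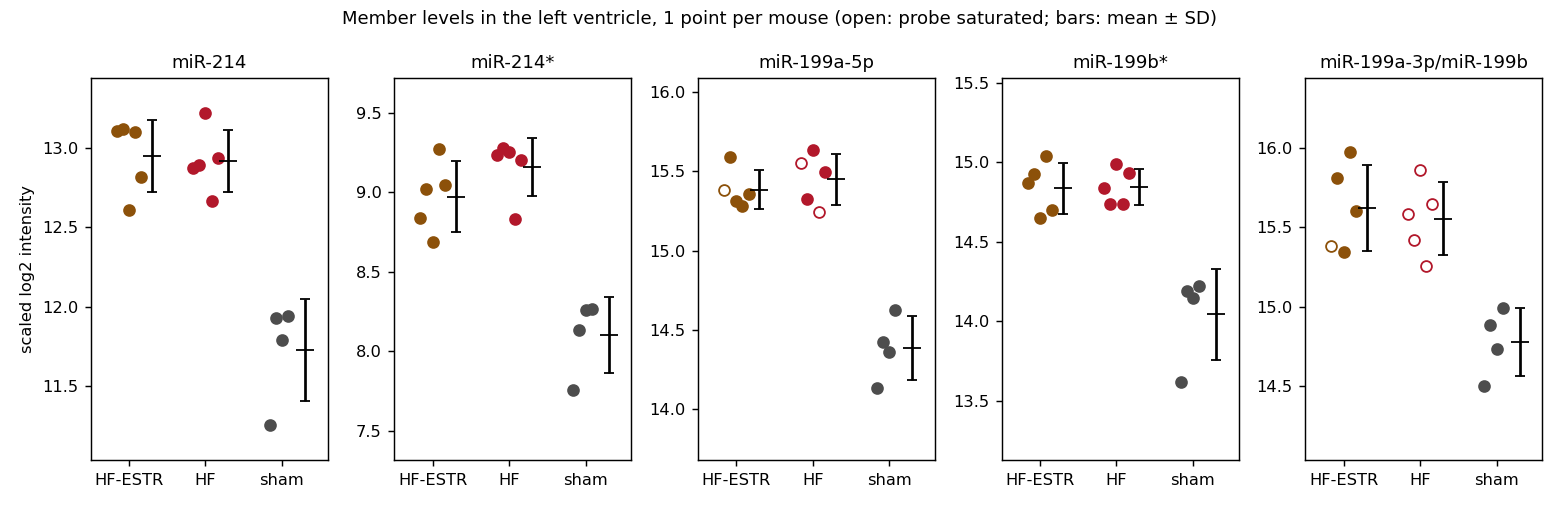
Scaled log2 intensity (y axis, a window of the same height in each panel) of the 5 member rows in HF-ESTR, HF and sham LV (x axis), with 1 point per mouse, open where the probe was saturated, and bars for mean ± SD (n = 5, 5 and 4). In every panel the HF-ESTR and HF points lie above all sham points, and sham 1 is the lowest sham point.

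For each of the 5 rows an exact permutation test of HF versus sham, two-sided, gave p = 0.00794, which is the smallest p that 5 against 4 mice allow. The median SD of log2 intensity between the 3 spots of a probe on 1 array was between 0.069 and 0.112 for the 3 rows without saturation, while the SD of these rows between mice of a group was between 0.11 and 0.32. Sham 1 was below its group mean for all 5 rows, by 0.25 for miR-199a-5p and by 0.47 for miR-214 at the ends of the range. Its scaling constant was 0.10, against 0.39 to 0.46 on the other sham arrays. Without sham 1 all 5 rows were still called, with log2 fold changes between 0.66 for miR-199b* and 1.03 for miR-214. The part of the scaling in the sham 1 values was not tested.

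**Figure D2:**
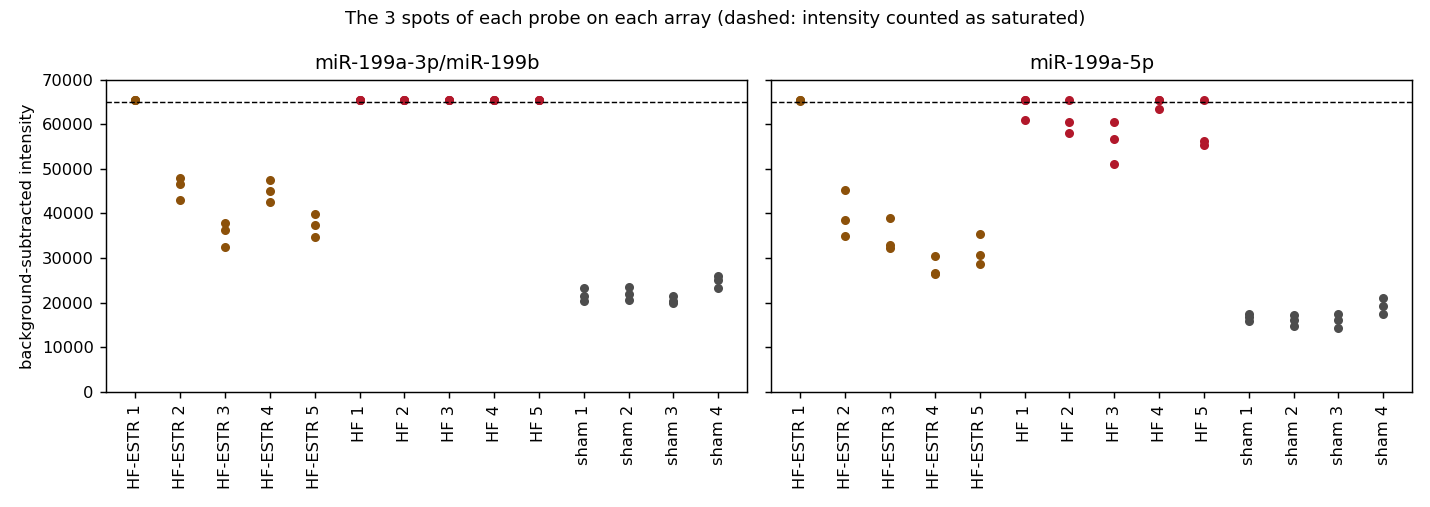
Background-subtracted intensity before scaling (y axis) of the 3 spots of the probe shared by the 3p arms (left) and of the miR-199a-5p probe (right) on each array (x axis), with the level counted as saturated dashed. All spots of the shared probe were saturated on HF 1 to 5 and HF-ESTR 1, while on sham arrays the spots of both probes read 25958 or less.

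Scaling set the size of these changes but not their call. Before scaling the log2 fold changes of the 5 rows in HF versus sham lay between 1.56 and 1.97, with a median of 0.66 over all 520 rows. Each of the 5 rows was called higher under every scaling tried. Rows of other miRs that were saturated on all 9 arrays, such as miR-1, have a scaled log2 fold change of -0.78 in HF versus sham through the scaling constants alone.

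In HF-ESTR versus sham all 5 rows were again higher without overlap. Of all 520 rows, 8.46% were called in this comparison, 5.19% were called higher, and 6.54% were higher without overlap. This comparison uses the same sham mice as that of HF. Scaled log2 values of miR-214 in HF-ESTR 1 to 5 were 13.10, 13.11, 12.61, 13.10 and 12.82, all above the highest sham value of 11.94. Its mean was 12.95 ± 0.23 (SD, n = 5) and its log2 fold change 1.22 (SE 0.17, limma adjusted p = 0.00029), which is 2.33-fold. miR-214* had 8.84, 9.02, 8.68, 9.27 and 9.05 in HF-ESTR 1 to 5, against 8.27 in the highest sham mouse. It was 1.83-fold higher (log2 fold change 0.87, SE 0.15, limma adjusted p = 0.00208). Both arms of the miR-214 hairpin were thus above sham in 5 of 5 HF-ESTR mice.

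miR-199a-5p had 15.38, 15.59, 15.31, 15.28 and 15.36 in HF-ESTR 1 to 5 and was saturated on HF-ESTR 1 only. Its log2 fold change against sham was 1.00 (SE 0.13, limma adjusted p = 0.00029), and 1.00 (limma adjusted p = 0.000892) with the saturated value set to missing. The ceiling on HF-ESTR 1 lowers the first of these values, which is still no minimum, since without sham 1 it was 0.91. miR-199b* had 14.87, 14.93, 14.65, 15.04 and 14.70, with a log2 fold change of 0.79 (SE 0.14, limma adjusted p = 0.00243). The 5p arms, which share their seed, had HF-ESTR values at least 0.43 log2 units above the highest sham value. The shared row of the 3p arms had 15.38, 15.81, 15.34, 15.97 and 15.60, with a log2 fold change of 0.84 (SE 0.17, limma adjusted p = 0.00403). This value is likewise lowered by the ceiling but is no minimum, since without sham 1 it was 0.75. The row was saturated on HF-ESTR 1 only, and without the saturated value the log2 fold change was 0.91 (limma adjusted p = 0.00841). In HF-ESTR 2 to 5 the row was thus measured below the ceiling, with intensities before scaling between 35540 and 45854, against 20668 to 24810 in sham. The exact permutation test, two-sided, gave p = 0.00794 for each of the 5 rows, the smallest p possible.

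Between HF-ESTR and HF, 0 of the 5 member rows were called by limma, and 0 had an unadjusted p under 0.05. Of all 520 rows 12.1% were called, 58 higher and 5 lower, but of the 255 rows that were neither dim nor saturated only 1 was called higher and 4 lower. The count of 63 over all rows was between 5 (without HF 4) and 87 (without HF-ESTR 1) when 1 mouse was left out. The HF-ESTR mean of miR-214 differed from that of HF by a log2 fold change of 0.03, with a 95% CI from -0.31 to 0.37 (limma adjusted p = 0.927), and the groups overlapped. That interval reaches from 0.81-fold to 1.29-fold. miR-214* had a log2 fold change of -0.19 (95% CI -0.50 to 0.12, limma adjusted p = 0.464), the lowest of the members. For miR-199b* it was -0.01 (95% CI -0.30 to 0.28, limma adjusted p = 0.984). miR-199a-5p was saturated on 1 of 5 HF-ESTR and 2 of 5 HF arrays, so that its measured difference of -0.07 (limma adjusted p = 0.805) does not bound the change. With the saturated values set to missing it was -0.10 (95% CI -0.44 to 0.24, limma adjusted p = 0.777). This does not bound the change either, since 1 spot each was at the ceiling on HF 2 and HF 5, which were kept. No fold change is given for the shared row of the 3p arms, which was at the ceiling on every HF array. Exact permutation tests, two-sided, gave p between 0.214 for miR-214* and 0.905 for miR-199b*. The intervals of the 3 rows without saturation still allow changes of up to about the size of their ends, and do not show that the levels are equal.

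The comparison of HF-ESTR with HF depended on the scaling. Before scaling, 4 rows were called lower in HF-ESTR, with log2 fold changes of -0.80 for miR-214* (adjusted p = 0.00887), -0.68 for miR-199a-5p (adjusted p = 0.020), -0.63 for miR-199b* (adjusted p = 0.0279) and -0.55 for the shared row of the 3p arms (adjusted p = 0.0168), all from limma. The shared row was at the ceiling on every HF array and on HF-ESTR 1, and miR-199a-5p on HF 1, HF 4 and HF-ESTR 1, so that their values are not measured fold changes. miR-214 had -0.59 (limma adjusted p = 0.0513) and was not called. The median log2 fold change of all 520 rows before scaling was -0.55. Intensities of miR-214 before scaling were 7079, 5344, 6133 and 5413 in HF-ESTR 2 to 5, all below the lowest HF array at 9973. HF-ESTR 1 had 13520, above the highest HF array. Under each of the other scalings tried, 0 members were called. Within the arrays that share a first number, 3 of HF-ESTR and 1 of HF, the difference in scaled log2 values was 0.01 for miR-214, -0.35 for miR-214* and -0.12 for miR-199b*. With this number as a block in the limma fit, 0 of all 520 rows were called in HF-ESTR versus HF, against 63 without the block.

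**Figure D3:**
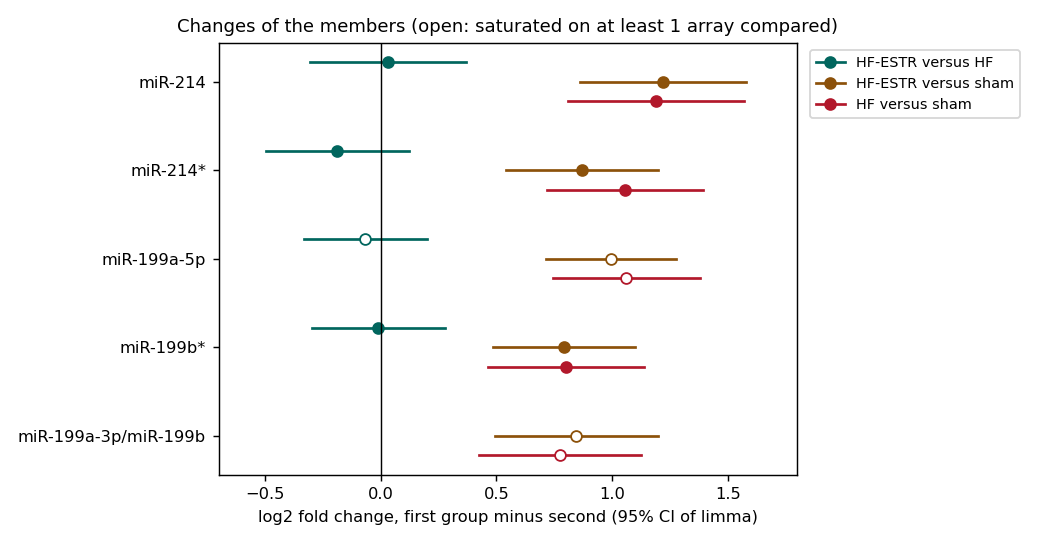
Log2 fold change (x axis, first-named group minus second, with its 95% CI from limma) of each member row (y axis) in HF-ESTR versus HF, HF-ESTR versus sham and HF versus sham, open where the probe was saturated on at least 1 array compared. Both comparisons with sham lie to the right of 0 for all 5 rows, the intervals of HF-ESTR versus HF include 0, and the shared 3p row has no HF-ESTR versus HF point because HF was saturated.

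Whether the members changed to the same extent was asked without the scaling. For this, the log2 intensity of 1 member was subtracted from that of another on the same array, for 10 pairs in 3 comparisons. These differences between probes have no meaning as relative amounts, and only their change between groups is read. In this family of 30 tests, 0 had an adjusted p under 0.05 and 10 an unadjusted p under 0.05, and 4 shared the lowest value (exact permutation test, two-sided, p = 0.00794, adjusted p = 0.0595). That p is the smallest that these group sizes allow. At this p, 4 tests alone cannot reach an adjusted p under 0.05 over 30 tests, so the 0 does not show that the members changed alike. In 7 of the 10 pairs at least 1 member was saturated in a group.

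Among the 3 pairs without saturation, miR-199b* minus miR-214 was 1.97, 1.85, 1.77, 2.06 and 2.01 log2 units in HF 1 to 5. In sham 1 to 4 it was 2.36, 2.27, 2.35 and 2.28. The groups did not overlap, and the difference in HF was 0.39 log2 units below that in sham (range -0.42 to -0.34 with any 1 mouse left out). In HF-ESTR 1 to 5 it was 1.77, 1.82, 2.04, 1.94 and 1.88, which is -0.43 relative to the same sham mice and -0.04 relative to HF. With adjustment over the 9 tests of the unsaturated pairs alone, the changes against sham of this pair had an adjusted p of 0.0357 in HF and in HF-ESTR (exact permutation test, two-sided), and they lost this with adjustment over all 30. In sham 1, where both members were lowest, the difference was 2.36 and thus in the range of the other sham mice. Whether the probes respond alike over their range of intensity was not tested.

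The 2 arms of the miR-214 hairpin were compared in the same way. miR-214 minus miR-214* averaged 3.76 ± 0.15 log2 units in HF (SD, n = 5) and 3.62 ± 0.13 in sham (SD, n = 4), a change of 0.13 (exact permutation test, two-sided, p = 0.214, adjusted p = 0.402). In HF-ESTR it averaged 3.97 ± 0.20 (SD, n = 5), 0.35 above sham (p = 0.0317, adjusted p = 0.106) and 0.21 above HF (p = 0.111, adjusted p = 0.256), by the same exact test. No shift between the arms was thus called in any of the 3 comparisons.

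**Figure D4:**
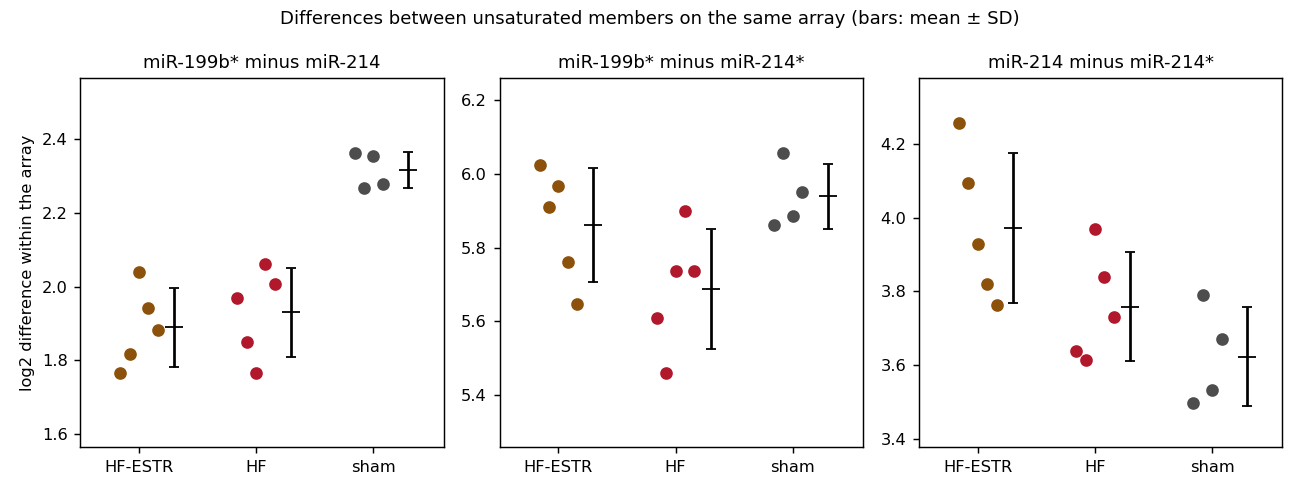
Difference in log2 intensity between 2 members on the same array (y axis, a window of 1 log2 unit in each panel) in HF-ESTR, HF and sham (x axis), with 1 point per mouse and bars for mean ± SD. miR-199b* minus miR-214 is between 1.77 and 2.06 in HF-ESTR and HF mice and between 2.27 and 2.36 in sham mice, while the other 2 pairs overlap between groups.

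The profile of miR-214 over the 14 arrays was compared with that of every other row. Likeness was measured as the root mean square (RMS) difference of scaled log2 values after the mean of each row over the arrays was removed, over 519 other rows with a median of 0.73 log2 units. Of the members without saturation, miR-199b* had rank 5 (0.21) and miR-214* rank 6 (0.21). No rank is given for miR-199a-5p and the shared row of the 3p arms, which were saturated on 3 and 6 of the 14 arrays. Outside the group and leaving out dim rows and rows with a saturated array, the nearest 5 were miR-455 (RMS difference 0.17, rank 1), its opposite arm miR-455* (0.18, rank 3), miR-222 (0.20, rank 4), miR-221 (0.23, rank 7) and miR-210 (0.29, rank 10). miR-455 and miR-455* come from 1 hairpin, and miR-221 and miR-222 share their seed and lie in 1 cluster. The arrays share scaling and the same mice, and the values of sham 1, the lowest array for all 10 rows, are a part of this likeness.

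These miRs were picked for likeness to the miR-214 profile over the same HF, HF-ESTR and sham arrays. Their changes between the groups thus follow in part from that choice and are not independent evidence. Each of the 5 miRs was called higher in HF versus sham. Their log2 fold changes were 1.08 for miR-455 (adjusted p = 0.00315), 1.15 for miR-455* (adjusted p = 0.00264), 0.91 for miR-222 (adjusted p = 0.00923), 0.94 for miR-221 (adjusted p = 0.00932) and 0.78 for miR-210 (adjusted p = 0.00932), all from limma. In HF-ESTR versus HF they lay between 0.05 for miR-222 and 0.18 for miR-221, with limma adjusted p between 0.599 and 0.898.

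**Figure D5:**
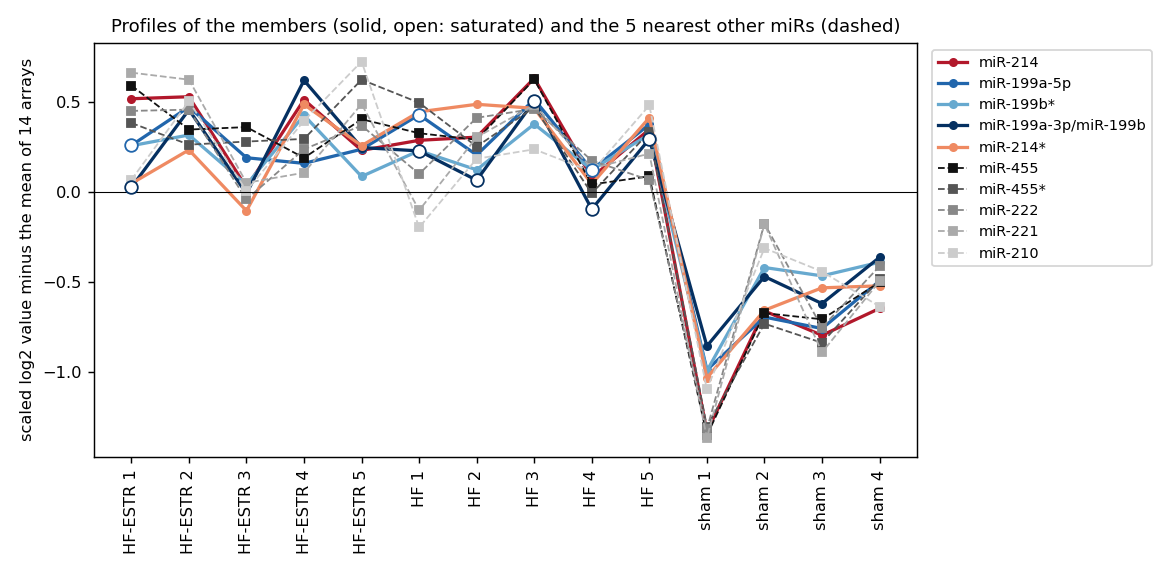
Scaled log2 value minus the mean of the row over 14 arrays (y axis) on each array (x axis) for the 5 member rows (solid lines, circles, open where the probe was saturated) and the 5 nearest other miRs (dashed lines, squares). Values of all 10 rows are lower on the sham arrays than the row's mean, and lowest on sham 1.

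Few of the other fibroblast and mesenchymal miRs could be measured below the ceiling. Of 12 listed, 11 were among the tested rows, and in HF versus sham 1 was called higher, 7 lower and 3 were not called, with a median log2 fold change of -0.78 (all 520 rows -0.13). This median is a value set by the scaling, since 6 of the 11 were saturated on all 9 arrays. The 5 rows without saturation there were miR-21, miR-29c, miR-10b, miR-100 and miR-152. miR-21, a miR known from cardiac fibrosis, had a mean of 13.38 ± 0.32 in HF (SD, n = 5) and 12.04 ± 0.11 in sham (SD, n = 4), a log2 fold change of 1.34 (SE 0.17, limma adjusted p = 0.00103). miR-29c, a miR known to repress collagens, had means of 14.37 ± 0.14 in HF and 15.10 ± 0.05 in sham, a log2 fold change of -0.72 (limma adjusted p = 0.00315). miR-100 and miR-152 had log2 fold changes of 0.32 (adjusted p = 0.0888) and 0.35 (adjusted p = 0.117) and were not called by limma. In HF-ESTR versus HF, 5 of the 11 were called higher, all 5 saturated on all 10 arrays, and in HF-ESTR versus sham only miR-29c was called, with a log2 fold change of -0.84 (limma adjusted p = 0.000544). miR-21 had 0.78 in HF-ESTR versus sham (limma adjusted p = 0.051) and -0.56 in HF-ESTR versus HF (limma adjusted p = 0.137), and was called in neither.

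Some markers of other cells also differed between HF and sham, while others were not called or were at the ceiling. Of 6 white blood cell miRs tested, 3 were called higher in HF (miR-142-5p at 0.71, miR-223 at 0.65 and miR-146a at 0.73 on the log2 scale), against 8.46% of all 520 rows. miR-142-3p (0.15), miR-150 (-0.31, limma adjusted p = 0.132) and miR-155 (-0.13) were not called. The 6 had a summed scaled intensity between 26675 and 32843 in HF and between 21082 and 29299 in sham. Of 6 cardiomyocyte miRs tested, miR-1, miR-133a and miR-133b were saturated on all 9 arrays, miR-208b was higher (log2 fold change 5.11) and miR-208a-3p (-0.83) and miR-499 (-0.59) were called lower. The endothelial miR-126-3p and miR-143 and miR-145 of smooth muscle were saturated on all 9 arrays, and miR-126-5p (0.09 on the log2 scale) was not called. Of 3 red blood cell miRs, miR-451 was saturated on all 9 arrays while miR-144 (log2 fold change -0.67, limma adjusted p = 0.0722) and miR-486 (-0.15, limma adjusted p = 0.494) were not called. In HF-ESTR versus sham, where all 5 member rows were higher, 0 of the 6 white blood cell miRs were called by limma, though 4 had an unadjusted p under 0.05. These were miR-146a (log2 fold change 0.82), miR-142-5p (0.48), miR-223 (0.42) and miR-150 (-0.44). The cardiomyocyte miR-208b was called higher there (log2 fold change 4.32, limma adjusted p = 2.88e-06) and miR-499 lower (-0.85, limma adjusted p = 0.00079), while miR-208a-3p (-0.45, limma adjusted p = 0.167) was not called. The part of these cells in the rise of the members was not tested.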

How the data were processed

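LV RNA of 14 mice was measured on single-channel arrays of miRBase 16.0 probes, and the groups were taken from the sample labels. Per the labels, low molecular weight RNA was labelled at its 3′ end with a fluorescent dye. The authors deposited background-subtracted intensity values, 1 per spot and 3 spots per probe. For the log2 values, the authors averaged the 3 spots and added 1 constant per array from a 20% trimmed mean. The use of 1 constant per array was checked on the values, and the trimmed mean was not. For the members the departure from that constant was at most 0.006 log2 units. Over all 520 rows it reached 0.76 with the largest departure left out. The authors kept mouse rows above a detection threshold from 28 negative control probes. Their notes count 524, and 520 were used here (4 lines were left out). Deposited p-values, false discovery rates, fold changes and group means were not used.

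Groups were compared on the deposited log2 values with limma 3.58.1 (R 4.3.3), HF versus sham in a fit of their 9 arrays and HF-ESTR versus HF or sham in a fit of all 14. Adjusted p-values are over all 520 rows. The thresholds (adjusted p under 0.05, log2 fold change over 0.5 in either direction) follow the methods, with the log read as log2. Single members and differences between members were tested with exact permutation tests, two-sided. The fits were tested on simulated data. Figures were drawn with matplotlib 3.10.9. The number of arrays limits the precision.

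Named beyond the members were the 5 nearest profiles to miR-214 and up to 4 called or lowest-p miRs of each list, plus listed markers that were saturated or of unlike direction, which were picked after their values were seen. Members, lists and tests were chosen with earlier results of these data known. The alternatives changed the scaling, the spot average, the rows tested, saturated values, array weights, the test, the arrays in the fit and the blocks, and left out each mouse.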

Additional observations from a re-analysis of the deposited data

Results flagged for a closer look

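miR-199b* read 13.62 in sham 1, set apart below the other 3 sham mice, which lay between 14.15 and 14.22. miR-214* read 8.83 in HF 4, set apart below the other 4 HF mice, which lay between 9.20 and 9.28. These were 2 of 15 combinations of member and group that were examined for an array far from its group, and chance flags about 1 in 20. In both cases the other members were also below their group mean on that array, by up to 0.47 in sham 1 and up to 0.29 in HF 4, which is the value of the saturated shared row.

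The arrays also carry probes named for miR-199 and miR-214 of other species, which the comparisons above do not use. The row named for rat and macaque miR-214 averaged 12.97 ± 0.15 in HF (SD, n = 5) and 11.58 ± 0.34 in sham (SD, n = 4), a difference of 1.39 log2 units. The row named for human miR-199b-5p averaged 9.07 ± 0.21 in HF and 8.23 ± 0.11 in sham, a difference of 0.83. Both rows were without overlap between HF and sham (exact permutation test, two-sided, p = 0.00794, adjusted p = 0.0143 over 9 tests). In HF-ESTR versus HF they differed by -0.20 (p = 0.111, adjusted p = 0.125) and -0.25 (p = 0.0714, adjusted p = 0.0918), by the same exact test. The row named for rat miR-214* was below the detection threshold on every array. Its highest values were 4.31 in HF, 4.90 in HF-ESTR and 5.18 in sham, against lowest thresholds of 4.79, 5.49 and 5.42. Its differences of -1.07 in HF versus sham and 0.95 in HF-ESTR versus HF are therefore not read, though the row is counted in the 9 tests.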

How the results depend on the processing

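In HF versus sham and in HF-ESTR versus sham, all 5 member rows kept their call and direction under every alternative run that gave them a value. With saturated values set to missing, 4 were called in HF versus sham, since the shared row of the 3p arms had no HF value left. In HF-ESTR versus HF, 4 rows were called lower without scaling between arrays, and the shared row then had -0.55 log2 units, turned against its scaled value, which is no measured fold change because HF was saturated. Under the other alternatives 0 were called there. Of the differences between members, 0 of 30 were called, and 2 of 9 when pairs with a saturated member were left out. The smallest p that the exact test allows limits the calls of these differences, also with a mouse left out.

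With any 1 mouse left out, 5 members were called in either comparison with sham, 0 in HF-ESTR versus HF, and 0 differences between members. Alternatives chosen after seeing the data, without HF 2 and HF-ESTR 1 (the arrays named 650) or with the first number of the array names as a random block, also gave 5, and the first of them 0 in HF-ESTR versus HF. With the replicate number as a replicate block, the counts were 5 in HF versus sham, 0 in HF-ESTR versus HF and 5 in HF-ESTR versus sham, and no member's call changed. Equal numbers are not stated to pair mice. The profiles of 13 pairs with equal numbers had correlations between -0.30 and 0.46 across rows after group means were removed (median 0.13), and 7 of 14 arrays were nearest to an array of their own number.

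The counts over all rows moved more than those of the members. Over the alternatives, 1 of which tested 1037 rows in place of 520, between 58 and 271 rows were called in HF versus sham (139 as reported, 44 higher and 95 lower), between 0 and 306 in HF-ESTR versus HF (63 as reported, 5 without HF 4 and 87 without HF-ESTR 1 when 1 mouse was left out) and between 20 and 63 in HF-ESTR versus sham (44 as reported). Without scaling, the 244 rows called in HF versus sham were all higher, and quantile normalization of the scaled values gave 45 higher and 32 lower. The cause was not tested. Signals at the ceiling limit miR-199a-5p and the shared row, and no alternative recovers their HF levels.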
